A study of Mus musculus with 2 samples.

Results

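*Fgfbp1*, *Tagln*, *S100a6*, *Anxa3*, *Emp3*, *Tfap2c*, *Krt8*, *Krt18*, *Ptch1* and *Lpar6* are 10 of the 13654 genes counted with at least 50 UMIs in single mouse embryonic stem cells. They were chosen from the levels measured in these same cells, as genes that stood out in a group of cells with *Sp5* transcripts. Their relation to *Sp5* and to each other is therefore given as a description, with no test. Cells of the E14 line were profiled as 1 library of wild-type cells (WT) and 1 library of cells in which *Smad1* and *Smad5*, which carry BMP signals from the receptors to the nucleus, had been disrupted with CRISPR–Cas9 (S1/5 dKO). Both were grown without feeder cells on gelatin in medium with 15% FBS and 1000 U/ml LIF, conditions that favour naïve pluripotency. Which S1/5 dKO line was used is not given in the sources used here. mRNA was captured near its 3′ end in droplets, and molecules were told apart by unique molecular identifiers (UMIs). Raw UMI counts were deposited by the authors.

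A barcode was taken as a cell if it had 1000 or more detected genes and no more than 5% of its UMIs from mitochondrial genes. This gave 2236 WT cells with 95965242 UMIs and 2910 cells labelled S1/5 dKO with 109020533 UMIs. WT cells held from 2230 to 198658 UMIs with a median of 38662, and the other cells from 1485 to 151083 with a median of 34548.5. No barcode was a cell in both libraries (0 shared). Few barcodes lay near the limits. Among kept cells, 3 in WT and 11 in the other library were within 100 genes above the first limit, and 9 and 11 left-out barcodes were within 100 genes below it. Between 4.5% and 5% mitochondrial UMIs there were 4 and 7 kept cells, and 1 barcode of each library with enough genes lay between 5% and 5.5%.

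The targeted genes were read first. *Smad1* (ENSMUSG00000031681) had 13.4 counts per 10⁶ UMIs (CPM; 1285 UMIs) in WT and 9.17 CPM (1000 UMIs) in the other library. *Smad5* (ENSMUSG00000021540) had 6.05 CPM (581 UMIs) and 9.09 CPM (991 UMIs), so its mRNA was higher where the label says that it was knocked out. A 3′ tag outside the edited part of a gene checks nothing, and the edited parts are not given in the labels. *Smad1* was lower, as were the BMP targets *Id1*, *Id2* and *Id3* (log2 ratios of −1.01, −1.76 and −0.75), the direction that the label gives. The second library is called the library labelled S1/5 dKO, and every direction below is drawn from that label. All intervals are exact 95% intervals that cover counting error only. With 1 library per condition, no difference between the libraries has a replicate check.

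The 10 genes belong to several systems, of epithelial, contractile and signalling cells among others. *Krt8* and *Krt18* encode the keratin partners that pair into the intermediate filaments of simple epithelia, and they are among the first keratins made in the embryo. *Tagln* encodes transgelin, an actin-binding protein of contractile cells. *S100a6* and *Anxa3* encode calcium-dependent proteins, an EF-hand protein and a phospholipid-binding annexin, and *Emp3* encodes an epithelial membrane protein related to PMP22. *Fgfbp1* encodes a secreted carrier that releases fibroblast growth factors from the matrix. *Tfap2c* encodes AP-2γ, a transcription factor of trophectoderm and germ cells. *Ptch1* encodes the Hedgehog receptor and is itself a target of that pathway, and *Lpar6* encodes a receptor for lysophosphatidic acid. *Sp5* encodes a zinc finger repressor switched on by Wnt signals. *Id1* is a direct target of BMP signals, and *Nanog* encodes a homeodomain factor of naïve cells.

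In the GENCODE annotation of GRCm38, *Krt8* (ENSMUSG00000049382, chromosome 15, 101996698 to 102004482, minus strand) and *Krt18* (ENSMUSG00000023043, chromosome 15, 102028180 to 102032027, plus strand) are neighbours with 23697 bases between them. The other 8 genes are spread over 7 chromosomes. *Fgfbp1* (ENSMUSG00000048373, 43978858 to 43981779, minus strand) and *Anxa3* (ENSMUSG00000029484, 96793339 to 96845966, plus strand) share chromosome 5 but lie 52811559 bases apart. *S100a6* (ENSMUSG00000001025) is on chromosome 3 from 90612882 to 90624181, *Emp3* (ENSMUSG00000040212) on chromosome 7 from 45918023 to 45921404, and *Tagln* (ENSMUSG00000032085) on chromosome 9 from 45929619 to 45936058. *Tfap2c* (ENSMUSG00000028640) is on chromosome 2 from 172549593 to 172558622 and *Ptch1* (ENSMUSG00000021466) on chromosome 13 from 63508328 to 63573598. *Lpar6* (ENSMUSG00000033446, chromosome 14, 73237895 to 73243294, plus strand) lies within *Rb1*, which is read from the opposite strand. All 10 are annotated as protein-coding genes. *Tagln* overlaps *Pcsk7*, also on the opposite strand.

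The first question was how far the genes differed between the libraries. In the library labelled S1/5 dKO, *S100a6*, *Emp3* and *Ptch1* were the clearest of the higher genes, while *Tagln*, *Krt18*, *Krt8* and *Anxa3* were lower. *Tagln* stood at 20.2 CPM in WT (1934 UMIs) against 10.2 CPM (1110 UMIs), a log2 ratio of −0.99 (−1.09 to −0.88), written throughout as the library labelled S1/5 dKO over WT. *S100a6* had 64.1 CPM (6154 UMIs) and 92.9 CPM (10128 UMIs), a log2 ratio of 0.53 (0.49 to 0.58). The mRNAs of the calcium-binding protein and of the actin-binding protein thus stood on opposite sides, although their levels were correlated across cells.

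The keratins were both lower. *Krt8* stood at 15.5 CPM in WT (1484 UMIs) against 10.4 CPM (1131 UMIs), a log2 ratio of −0.58 (−0.69 to −0.46). *Krt18* had 7.08 CPM (679 UMIs) and 4.09 CPM (446 UMIs), a log2 ratio of −0.79 (−0.97 to −0.62). Nearly all of this difference for *Krt18*, and part of it for *Krt8*, lay in a few cells rich in *Krt18*, 5 of them in WT.

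*Emp3* stood at 8.15 CPM in WT against 11.6 CPM, a log2 ratio of 0.51 (0.38 to 0.64). *Ptch1* had 10.3 and 12.4 CPM, a log2 ratio of 0.26 (0.14 to 0.38). *Anxa3* had 11.8 and 9.23 CPM, a log2 ratio of −0.35 (−0.48 to −0.23). These differences were small beside that of *Tagln*. *Fgfbp1* had 24.9 and 27.1 CPM, a log2 ratio of 0.13 (0.05 to 0.21). For *Tfap2c*, with 8.46 and 8.75 CPM, and *Lpar6*, with 5.60 and 6.06 CPM, the intervals of the log2 ratio ran from −0.09 to 0.19 and from −0.05 to 0.28, both over 0. *Lpar6* stood at 0.44 once each cell was thinned to 10000 UMIs, from 117 and 206 UMIs, and the reason for the move was not tested.

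All 10 genes passed the minimum of 50 UMIs over both libraries. Of the 13654 genes that passed it, 2.61% were lower by at least 1.5-fold and 2.81% higher by as much in the library labelled S1/5 dKO. Of the 10 genes, *Tagln* and *Krt18* were lower by that measure and 0 were higher, while *Krt8* fell just short. The median log2 ratio was 0.08 over the 10 genes and −0.01 over all genes tested, with members on both sides.

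**Figure D1:**
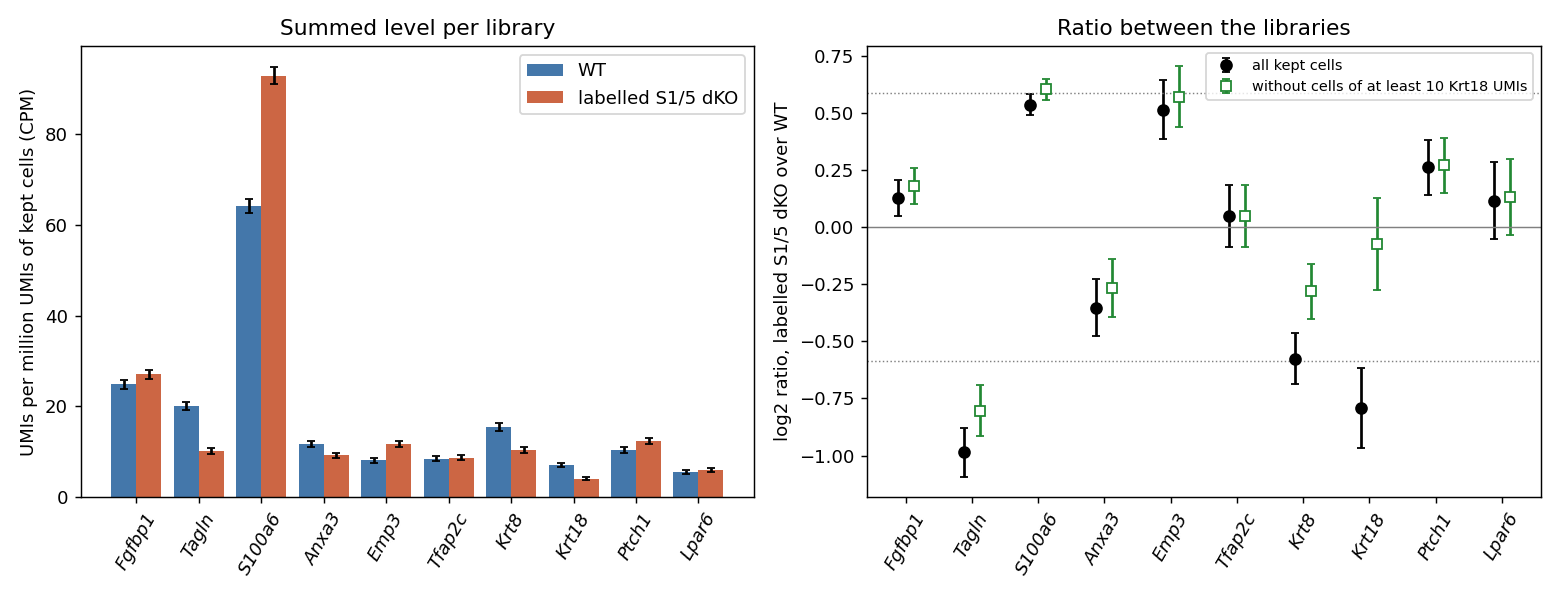
Left, bars give the UMIs of each gene per 10⁶ UMIs of the kept cells in the WT library and in the library labelled S1/5 dKO, with exact 95% Poisson intervals. Right, points give the log2 ratio with its exact 95% interval over all kept cells (circles) and without cells of at least 10 *Krt18* UMIs (squares), and dotted lines mark 1.5-fold. Without those 6 cells the ratio of *Krt18* moved from −0.79 to −0.07, and that of *Tagln* from −0.99 to −0.80.

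At a depth of 10000 UMIs the genes were sparse, each found in a minority of cells. Each cell was thinned at random to 10000 UMIs, because a share of cells with a UMI rises with depth. This left 2193 WT cells and 2843 cells labelled S1/5 dKO, with 43 and 67 shallower cells left out. *S100a6* was found in 29.5% (27.6 to 31.5%) of WT cells and, in the other library, in 35.2% (33.5 to 37.0%). *Emp3* was found in 7.71% (6.62 to 8.90%) and 10.9% (9.75 to 12.1%). Both shares moved in the same direction as the summed level. *Tagln* was found in 7.84% (6.75 to 9.05%) and 6.01% (5.17 to 6.95%). *Fgfbp1* was found in 15.7% (14.2 to 17.3%) and 17.6% (16.2 to 19.0%), but in 25.1% and 24.1% at 20000 UMIs, the opposite order. The order of the libraries also changed between 5000 and 10000 UMIs for *Tfap2c* and *Lpar6*.

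The keratins were different here. *Krt18* was found in 4.15% (3.35 to 5.07%) of cells in WT and in 4.54% (3.80 to 5.37%) in the other library, so the shares were close while the summed levels differed. At 5000 UMIs they were 2.76% and 1.85%, and at 20000 UMIs 7.38% and 8.0%, with no constant order of the libraries. *Krt8* was found in 10.4% (9.11 to 11.7%) and 9.29% (8.24 to 10.4%). The shares of the 4 remaining genes lay between 4.97% and 10.3% in the 2 libraries. Without thinning, the shares ran from 15.0% (*Krt18*) to 58.1% (*S100a6*) in WT and from 13.2% to 59.2% for the same genes in the other library.

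Free RNA was read from barcodes with 10 to 100 UMIs, 72422 in WT and 72397 in the other library. There, *S100a6* stood at 56.7 CPM (100 UMIs) for WT and at 76.1 CPM (149 UMIs) for the other library, close below its level in cells. *Tagln* had 14.2 CPM (25 UMIs) and 2.04 CPM (4 UMIs), and *Krt18* 3.40 and 3.06 CPM (6 UMIs each). Both libraries hold a single cell type by label, so the share of cells with a UMI in a type that lacks the genes was not measured. Cells with a single UMI of these genes were not separated from free RNA.

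*Tagln* in both libraries and the keratins in WT had the largest parts of their UMIs in a few cells. The 10 WT cells with the most UMIs of each gene held 44.5% of the *Krt18* UMIs, 37.3% of the *Tagln* UMIs and 22.6% of the *Krt8* UMIs. The 10 highest cells labelled S1/5 dKO held 28.1% of the *Tagln* UMIs but 8.97% of the *Krt18* and 5.39% of the *Krt8* UMIs. The variance of *Krt18* UMIs over cells at 10000 UMIs was 15.5 times its mean in WT and 1.32 times in the other library. For *Tagln* it was 13.8 and 6.79 times, for *S100a6* 6.19 and 8.03 times, and for *Lpar6*, among the most even, 1.10 times in both. The highest cell held 126 *Tagln* UMIs in WT and 89 in the other library.

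In WT, 5 cells held at least 10 *Krt18* UMIs, a limit chosen after the values were seen, and in the library labelled S1/5 dKO 1 cell did. The WT cells held 89, 75, 49, 47 and 22 *Krt18* UMIs, 41.5% of all *Krt18* UMIs of the library. They also held 107, 84, 50, 41 and 3 *Krt8* UMIs, 19.2% of that gene. The first 3 of these cells also held other genes of the group, with 41, 52 and 120 *Tagln* UMIs, 143, 44 and 76 *S100a6* UMIs and 23, 16 and 18 *Anxa3* UMIs. These 3 cells also had 18, 16 and 17 UMIs of the keratin *Krt19* and 73, 47 and 51 UMIs of *Sfn*, the stratifin gene of epithelial cells. *Sfn* was not particular to them, with 27 and 8 UMIs in the fourth and last WT cells and 38 in the cell of the other library. It was detected in 68.7% of all WT cells and in 62.8% of those of the other library. The first 3 cells held 0 *Sp5*, 0 *Ptch1* and 0 *Tfap2c* UMIs.

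The fourth cell had a different make-up, with 24 *Fgfbp1* and 6 *Sp5* UMIs and 5 of *Tagln*, and the last held 52 *Fgfbp1*, 54 *S100a6*, 21 *Anxa3*, 20 *Tagln* and 3 *Sp5* UMIs. Total UMIs of the 5 cells were 40558, 18670, 29607, 31137 and 42529, within the range of other cells. *Nanog* was at 0, 0, 0, 2 and 1 UMIs, *Pou5f1* at 16, 4, 16, 42 and 14, and *Zfp42* at 6, 1, 1, 2 and 4, where the median WT cell held 51 *Pou5f1* and 32 *Zfp42* UMIs. *Zfp42* was thus low in all 5 and *Pou5f1* in all but the fourth, while *Nanog* was at 0 in the first 3. The single cell of the other library had 17 *Krt18*, 9 *Krt8*, 59 *S100a6*, 6 *Pou5f1* and 0 *Nanog* UMIs. Defining markers of fibroblasts (*Col1a1*, *Col1a2*, *Dcn*) and of primitive endoderm (*Gata4*, *Gata6*, *Sox17*) were at 0 in all 6 cells. Of the trophoblast list, *Elf5* was at 0, while *Gata3* was at 2 UMIs in 3 of the WT cells and at 1 in the cell of the other library, and *Hand1* and *Tfap2a* were at 1 UMI in 1 WT cell each. *Cdx2* was at 0 in the 5 WT cells and at 1 UMI in the other, and *Eomes* was at 2 and 1 UMIs in the fourth and last WT cells. *Krt7*, of the same list, was at 2 UMIs in the third WT cell and in the other library's cell, and the contractile gene *Acta2* at 34 of its 120 WT UMIs in the third.

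**Figure D2:**
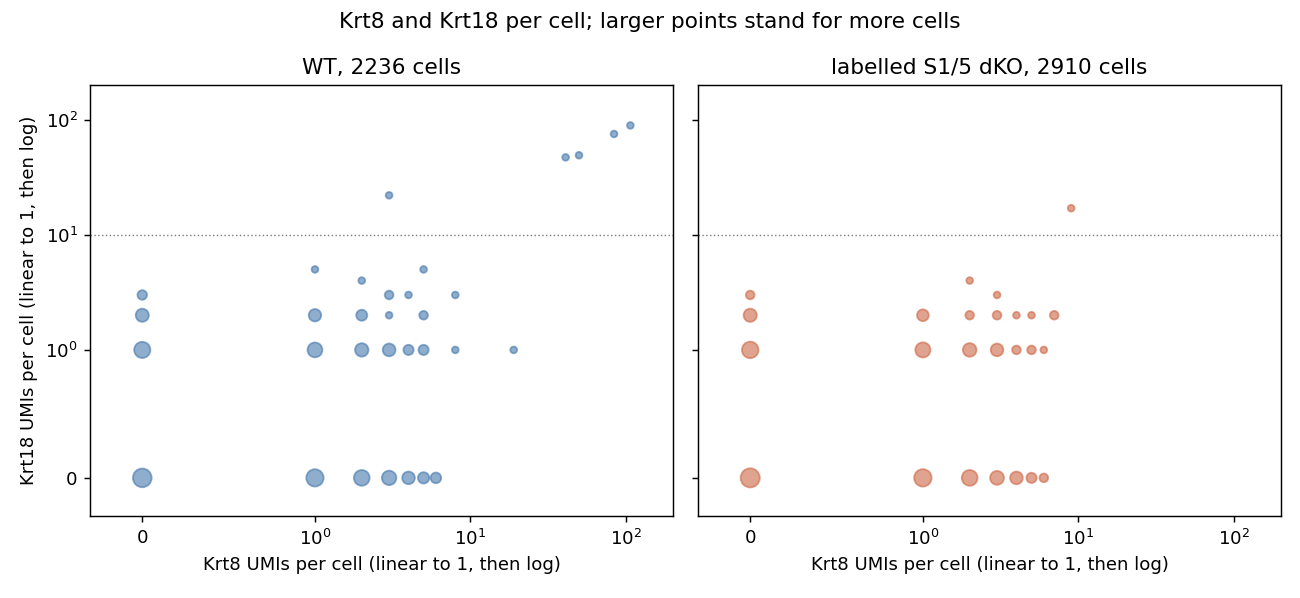
Each point stands for the cells with the same number of *Krt8* UMIs (horizontal axis) and *Krt18* UMIs (vertical axis), on axes that are linear to 1 and logarithmic above, and its area grows with the number of cells. The dotted line marks 10 *Krt18* UMIs, with 5 WT cells and 1 cell labelled S1/5 dKO above it.

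Without these cells, no difference of *Krt18* between the libraries was detectable, and that of *Krt8* was smaller. The log2 ratio was −0.07 (−0.27 to 0.13) for *Krt18* and −0.28 (−0.40 to −0.16) for *Krt8*. *Tagln* was still lower but by less, at −0.80 (−0.91 to −0.69), and *S100a6* moved past 1.5-fold, to 0.60. With the 10 highest cells of each gene left out of each library, an alternative also chosen after the values were seen, *Krt18* came to −0.08, *Krt8* to −0.29 and *Tagln* to −0.79.

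The next question was which of the genes were found in the same cells. Pearson correlations of ln(1 + UMIs per 10000) were taken across the cells of each library, 2236 and 2910, for the 45 pairs. Such an r is a description of cells that share a culture and a library. The median r was 0.17 for WT and 0.13 for the library labelled S1/5 dKO. An r of at least 0.1 was reached by 29 pairs in WT and 25 in the other library. Among all pairs of a member with any gene detected in at least 10% of the cells, 2.89% in WT and 2.35% in the other library reached it. Since the members were chosen from the same cells, nothing is read from that contrast. With every cell thinned to 10000 UMIs, the medians were 0.098 and 0.068, so a low r between 2 sparse genes carries little.

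*Fgfbp1*, *S100a6* and *Anxa3* formed the tightest set in both libraries. *S100a6* and *Anxa3* had an r of 0.46 in WT and 0.41 in the other library. *Fgfbp1* and *S100a6* had an r of 0.44 and 0.45, and *Fgfbp1* and *Anxa3* of 0.44 and 0.41. *Tagln* and *Anxa3* had an r of 0.44 and 0.32. At 10000 UMIs, 161 WT cells held both *Fgfbp1* and *S100a6*, 7.34% of the cells. In the library labelled S1/5 dKO, 282 cells did, 9.92%. Over the 10 pairs among *Fgfbp1*, *Tagln*, *S100a6*, *Anxa3* and *Emp3*, r ran from 0.15 to 0.46 in WT, with a median of 0.32, and from 0.16 to 0.45 in the other library, with a median of 0.30.

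*Lpar6* joined this set through *Fgfbp1*, with an r of 0.32 in WT and 0.30 in the other library. *Tfap2c* had its highest r within the group with *S100a6*, 0.22 and 0.27. *Ptch1* went with the others weakly, with a median r over its 9 pairs of 0.0067 for WT and 0.079 for the library labelled S1/5 dKO. Its pair with *S100a6* stood at 0.075 and 0.21, and its pair with *Fgfbp1* at 0.066 and 0.19.

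The correlations of the keratins differed most between the libraries. Over the 16 pairs of *Krt8* or *Krt18* with the other 8 genes, the median r over all kept cells was 0.18 for WT and 0.013 for the library labelled S1/5 dKO. *Krt8* and *Krt18* themselves had an r of 0.52 in WT and 0.15 in the other library. Without the 5 and 1 cells of at least 10 *Krt18* UMIs, it was 0.083 and 0.084. *Krt18* and *Tagln* went from 0.34 to 0.074 in WT and from 0.041 to 0.0050 in the other library, and the median over the 45 pairs from 0.17 to 0.088 in WT and from 0.13 to 0.12 in the other. *Fgfbp1* and *Krt8* then had an r of −0.041 and −0.093. *Krt18* in WT went from 0.37 to 0.16 with *Anxa3*, from 0.26 to 0.12 with *S100a6* and from 0.29 to 0.10 with *Emp3*. The values without those cells were above that with *Krt8*. The set of *Fgfbp1*, *S100a6* and *Anxa3* kept an r of at least 0.40 for each of its pairs in both libraries.

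**Figure D3:**
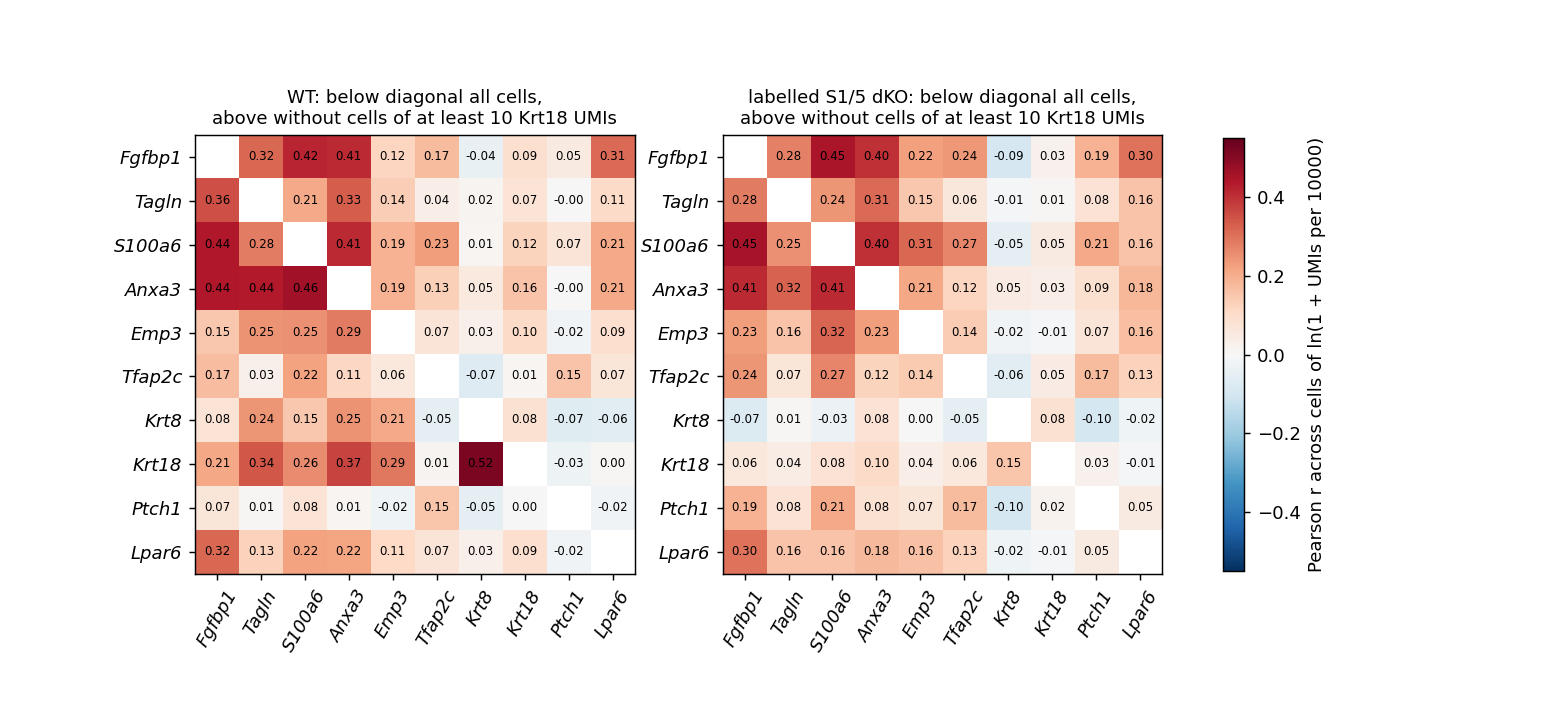
Colours and printed values give the Pearson r of each pair of genes across the cells of WT (left) and of the library labelled S1/5 dKO (right). Values below the diagonal are from all kept cells, and values above it are without cells of at least 10 *Krt18* UMIs, where *Krt8* with *Krt18* fell from 0.52 to 0.083 in WT.

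Promoter sequences are shown for the pair of genes with the highest r in both libraries together and for the keratin pair. RefSeq (GRCm38.p6) gave the 250 bases before the start for 7 of the 10 genes, *Fgfbp1*, *S100a6*, *Emp3*, *Krt8*, *Krt18*, *Ptch1* and *Lpar6*, and only stretches outside annotated exons are printed, 5′ to 3′ on the strand of the gene, with matches to the motifs below in capitals. They lie at chr5:43981800-43982049 (minus strand), chr3:90612644-90612881 (plus strand), chr15:102004483-102004592 (minus strand) and chr15:102027966-102028179 (plus strand).
Fgfbp1: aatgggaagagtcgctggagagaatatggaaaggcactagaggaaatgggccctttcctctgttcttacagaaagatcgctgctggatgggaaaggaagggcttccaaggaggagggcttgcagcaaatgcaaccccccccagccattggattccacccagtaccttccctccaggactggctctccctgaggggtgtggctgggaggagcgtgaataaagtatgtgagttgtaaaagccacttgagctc
S100a6: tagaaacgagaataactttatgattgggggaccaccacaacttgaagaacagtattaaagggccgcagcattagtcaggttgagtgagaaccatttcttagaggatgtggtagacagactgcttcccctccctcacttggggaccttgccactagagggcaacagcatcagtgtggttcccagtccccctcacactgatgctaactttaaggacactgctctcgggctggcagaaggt
Krt8: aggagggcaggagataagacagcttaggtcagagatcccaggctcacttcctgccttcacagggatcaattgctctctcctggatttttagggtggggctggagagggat
Krt18: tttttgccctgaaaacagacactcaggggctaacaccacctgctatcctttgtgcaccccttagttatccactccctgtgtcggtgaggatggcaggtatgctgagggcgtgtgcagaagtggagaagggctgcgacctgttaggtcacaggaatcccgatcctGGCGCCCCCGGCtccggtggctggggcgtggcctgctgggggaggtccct
Both strands of the 250 bases were searched for 7 motifs. The *Krt18* window held an AP-2 match (GCCNNNGGC), found in 13.7% of the 32851 promoters of the table, overlapping a GC-rich SMAD1/5 element (GGCGCC), found in 9.59%. The *Ptch1* window held GGCGCC and a GC box (GGGCGG, 32.7% of promoters). A TCF/LEF match (CTTTGAT, 3.21%) was in the *Emp3* window and in that of *Sp5*, and a TEAD match (GGAATG, 12.6%) in that of *Lpar6*. The GLI letters GACCACCCA (0.225%) and the AP-1 letters TGANTCA (6.75%) were in 0 of the 7 windows, and the *Fgfbp1*, *S100a6* and *Krt8* windows held 0 of the 7 motifs. A match is a description of letters, not a binding site.

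The genes most like the group were then sought by their r with the mean z-score of the 10 genes. All kept cells were used, and the ranking was not repeated without the cells of at least 10 *Krt18* UMIs. Among 9566 other genes detected in at least 10% of the WT cells, *Anxa2* (0.52), *Sfn* (0.51), *Perp* (0.48), *Cryab* (0.48) and *Cald1* (0.47) had the highest r. Among 9260 genes in the library labelled S1/5 dKO they were *Tpm1* (0.42), *Perp* (0.41), *Sfn* (0.38), *Anxa2* (0.36) and *Ctnnal1* (0.36), so 3 genes were shared. These encode an annexin, a stratifin, a desmosome-linked membrane protein, a small heat shock protein, and the actin-binding caldesmon, tropomyosin and an α-catenin-like protein. At the other end, *Atp5g1*, *Npm1*, *H2afz*, *Zfp42* and *Ptma* had the lowest r in WT (−0.37 to −0.31). In the other library these were *Sept1*, *Aes*, *Zfp42*, *Atp5g1* and *H2afz* (−0.37 to −0.33). *Zfp42*, a marker of naïve cells, was thus among the 5 lowest in both.

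Single members had their own closest genes, ranked over all kept cells by the smaller of the r values of the 2 libraries. *Ptch1* was closest to *Gli1*, the Hedgehog-dependent transcription factor (0.23 in WT and 0.25 in the other library), followed by *Arl4a*. *Tagln* was closest to *Tpm1* (0.46 and 0.37) and *Myl9* (0.38 and 0.33), which encode tropomyosin and a myosin light chain, and then to *Anxa3*. *S100a6* was closest to *Sfn* (0.46 and 0.45), *Emp3* to *Perp* (0.31 and 0.36) and *Tfap2c* to *Gpx4* (0.22 and 0.24). *Fgfbp1*, *Anxa3* and *Lpar6* had other members first, *S100a6*, *S100a6* and *Fgfbp1*. *Krt8* was closest to *Sparc* (0.16 and 0.19) and *Lgals3* (0.16 and 0.18), and *Krt18* to *Krt8*, *Cldn4* (0.17 and 0.12) and *Dusp14*. Among genes outside the group, the next were *Tpm1* for *Fgfbp1*, *Perp* for *Anxa3*, *Cald1* for *Emp3*, *Ctnnal1* for *Tfap2c*, and *Cald1* and *Perp* for *Lpar6*.

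The genes were chosen for their levels in cells with *Sp5*, so their contrasts by *Sp5* are given as values with counting error, and nothing is read from them. At 10000 UMIs, a *Sp5* UMI was found in 96 cells of WT and in 235 of the library labelled S1/5 dKO, with median totals of 38807.5 and 32343 UMIs, beside 39010 and 35204.5 in cells without. *Sp5* (ENSMUSG00000075304) itself stood at 5.48 CPM in WT (526 UMIs) against 11.3 CPM (1236 UMIs). Among cells labelled S1/5 dKO, *Fgfbp1* had 26.4 CPM (24.4 to 28.4) in those without *Sp5* UMIs against 90.2 CPM (78.5 to 103) in those with them, and *S100a6* 90.5 CPM (86.9 to 94.2) against 240 CPM (221 to 261). By *Sp5* UMIs, *Fgfbp1* stood at 68.9 CPM in the 161 cells with 1, 147 CPM in the 49 cells with 2 and 116 CPM in the 25 cells with 3 or more. *Ptch1* stood at 10.9 CPM without *Sp5* and at 28.0, 42.9 and 36.0 CPM in these classes.

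The WT contrasts rest on fewer cells with *Sp5*, and their size against the other library depended on the depth. *Fgfbp1* had 24.1 CPM (22.1 to 26.3) in cells without *Sp5* UMIs and 55.2 CPM (41.4 to 72.2) in cells with them. *S100a6* had 68.3 CPM (64.8 to 72.0) and 109 CPM (89.5 to 132), and *Ptch1* 9.54 CPM (8.26 to 11) and 20.8 CPM (12.7 to 32.2). *Tagln* had 21.6 CPM (19.7 to 23.7) and 19.8 CPM (11.9 to 30.9) in WT, and 9.82 CPM (8.65 to 11.1) and 30.2 CPM (23.6 to 38.1) among cells labelled S1/5 dKO. The median log2 ratio of cells with over cells without *Sp5* UMIs was 0.64 over the 10 genes in WT and 1.22 in the other library. At 20000 UMIs it was 1.04 and 0.91, in the opposite order, with *Tagln* at 1.26 and 0.92 and *Fgfbp1* at 1.57 in both. Over all genes with enough UMIs, 7.53% in WT and 5.89% in the other library were at least 1.5-fold higher in the cells with *Sp5*, and nothing is read from the members against it.

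The keratin values by *Sp5* moved with few cells. In the library labelled S1/5 dKO, *Krt8* had 10.5 CPM (9.33 to 11.9) in cells without and 7.23 CPM (4.21 to 11.6) in cells with *Sp5* UMIs, and *Krt18* had 4.91 and 5.11 CPM. At 20000 UMIs the log2 ratio of *Krt8* there was −1.60. In WT, *Krt8* had 16.0 CPM without and 19.8 CPM with *Sp5* UMIs, a log2 ratio of 0.30 (−0.45 to 0.97), and *Krt18* had 8.49 CPM without and 19.8 CPM with *Sp5* UMIs, a log2 ratio of 1.22, the highest of the 10 genes. Without the cells of at least 10 *Krt18* UMIs, of which 1 held *Sp5* at this depth, the log2 ratio of *Krt18* was −0.48 (−2.78 to 1.12), from 3 UMIs in 95 cells with *Sp5*. The same removal turned *Krt8* from 0.30 to −1.22 (−2.85 to 0.02) in WT and gave −0.82 (−1.71 to −0.05) in the other library, where *Krt18* went from 0.06 to −1.20 (−2.85 to 0.06) with 1 cell left out.

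The library differences were also read within the classes of *Sp5*, at 10000 UMIs only. Among cells without *Sp5* UMIs alone, the log2 ratio between the libraries was −1.14 (−1.36 to −0.91) for *Tagln*, 0.41 (0.31 to 0.50) for *S100a6* and 0.51 (0.25 to 0.78) for *Emp3*. Among cells with *Sp5* UMIs, it was 0.61 (−0.14 to 1.42) for *Tagln*, 1.14 (0.83 to 1.45) for *S100a6* and 1.71 (0.57 to 3.09) for *Emp3*. The last rests on 7 UMIs in WT and 56 in the other library, and that of *Tagln* on 19 and 71. The log2 ratio of *Tagln* in cells with over cells without *Sp5* depended on depth. It was −0.13 in WT and 1.62 in the other library here, but 1.26 and 0.92 at 20000 UMIs. No direction is therefore read from the *Tagln* value in cells with *Sp5* UMIs. *Krt8* stood at −0.60 (−0.84 to −0.37) without and −1.45 (−2.49 to −0.43) with *Sp5* UMIs, and *Krt18* at −0.79 (−1.13 to −0.45) and −1.95 (−3.13 to −0.84), with all cells kept. Without the cells of at least 10 *Krt18* UMIs, *Krt8* with *Sp5* had 5 UMIs in 95 WT cells and 14 in 234 other cells. *Krt18* without *Sp5* had 92 UMIs in 2093 cells and 128 in 2608. Neither was then lower per cell in the library labelled S1/5 dKO. *Krt8* without *Sp5* (256 and 275 UMIs) and *Krt18* with *Sp5* (3 and 5 UMIs) were still lower there.

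The relation of the 10-gene mean to *Id1* was weak and of opposite sign in the 2 libraries. *Id1* (ENSMUSG00000042745) had 323 CPM in WT (319 to 327) and 161 CPM (158 to 163) in the library labelled S1/5 dKO. Across cells, the r of the 10-gene mean with *Id1* was 0.076 over the 2236 WT cells and −0.13 over the 2910 other cells. In cells thinned to 10000 UMIs, WT cells with none of the 10 genes (821) had 306 CPM of *Id1* (294 to 319) and those with 3 or more (227) had 363 CPM (339 to 389). In the other library, 1002 cells with none had 164 CPM (156 to 172) and 373 cells with 3 or more had 126 CPM (115 to 138).

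By gene, *Tagln* differed in direction between the libraries, as did *S100a6* between cells with and without *Id1*. *Fgfbp1* was lower with *Id1* in 1 library alone. *Ptch1* had a log2 ratio of 0.36 (−0.10 to 0.83) in WT and −0.64 (−0.95 to −0.33) in the other library. *Tfap2c* and *Lpar6* had log2 ratios below 0 in both. Their r with *Id1* over all kept cells was 0.062 and 0.0054 in WT, and −0.12 and −0.10 in the other library. In the library labelled S1/5 dKO, *Fgfbp1* had 44.5 CPM (40.9 to 48.3) in the 1273 cells without an *Id1* UMI and 21.3 CPM (19.1 to 23.7) in the 1570 cells with one. In WT *Fgfbp1* showed no detectable relation, with 24.3 CPM (20.6 to 28.5) in 622 cells without *Id1* and 26.0 CPM (23.5 to 28.6) in 1571 cells with it. *Tagln* had 15.6 CPM (13.5 to 18.0) without and 8.15 CPM (6.80 to 9.69) with *Id1* in the library labelled S1/5 dKO, and 14 CPM (11.2 to 17.3) and 24.5 CPM (22.1 to 27.1) in WT. *Tagln* was therefore at about the same level in the *Id1*-negative cells of both libraries, and the libraries stood apart in the cells with *Id1*. The log2 ratio of cells with over cells without *Id1* was 0.26 (0.09 to 0.43) in WT and −0.29 (−0.39 to −0.18) in the other library for *S100a6*, −0.30 (−0.75 to 0.16) and −0.70 (−1.06 to −0.34) for *Tfap2c*, and −0.39 (−0.96 to 0.20) and −0.75 (−1.17 to −0.34) for *Lpar6*. *S100a6* did not fall throughout with *Id1* in the library labelled S1/5 dKO, where its r with *Id1* was −0.024. There it had 114 CPM (108 to 120) without *Id1* but 142 CPM (124 to 161) in the 167 cells with 6 or more *Id1* UMIs. In WT, several of these relations depended on the cells of at least 10 *Krt18* UMIs. Without them, the ratio went from 0.81 to 0.42 (0.07 to 0.78) for *Tagln*, from 0.70 to 0.49 (0.06 to 0.94) for *Anxa3* and from 0.26 to 0.14 (−0.03 to 0.31) for *S100a6*. For *Krt8* it went from 0.74 (0.35 to 1.14) to 0.17 (−0.23 to 0.59). For *Krt18* it reversed, from 0.64 (0.13 to 1.17) to −0.87 (−1.49 to −0.25). Without the 1 such cell of the other library, *Krt18* stood at 0.43 (−0.09 to 0.97) there and *Krt8* at 0.40 (0.05 to 0.76). The median totals were 36302 UMIs with and 33940 without *Id1* in the library labelled S1/5 dKO, and 39550 and 37975 in WT.

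The other *Id* genes did not share this reversal. *Id2* had 56.0 CPM (51.0 to 61.4) in WT cells with none of the 10 genes against 87.2 CPM (75.5 to 100) in cells with 3 or more, and 11.9 CPM (9.84 to 14.2) against 29.0 CPM (23.8 to 35.0) in the other library. *Id3* had 91.5 CPM (85.0 to 98.3) against 133 CPM (119 to 149), and 51.9 CPM (47.5 to 56.6) against 83.9 CPM (74.9 to 93.7).

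*Nanog* was lower in cells rich in the 10 genes in both libraries. *Nanog* (ENSMUSG00000012396) itself had 138 CPM in WT (136 to 141) and 142 CPM (140 to 144) in the library labelled S1/5 dKO. Across cells, the r of the 10-gene mean with *Nanog* was −0.14 in WT and −0.22 in the other library. WT cells with none of the genes had 139 CPM of *Nanog* (131 to 147) and those with 3 or more had 116 CPM (102 to 131). In the other library, the values were 146 CPM (138 to 153) and 106 CPM (96.2 to 117). In the 36 WT cells with 5 or more of the genes *Nanog* was at 61.1 CPM, and in the 49 such cells of the other library at 67.3 CPM.

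Most of the genes were lower in cells with a *Nanog* UMI, with a median log2 ratio of cells with over cells without of −0.69 for WT and −0.77 for the library labelled S1/5 dKO. Both medians include the cells of at least 10 *Krt18* UMIs, without which several WT ratios, given below, were smaller or changed sign. *S100a6* had 90.2 CPM (83.3 to 97.5) in WT cells without and 60.6 CPM (56.8 to 64.7) in WT cells with a *Nanog* UMI, and 149 CPM (141 to 157) and 79.5 CPM (75.6 to 83.7) in the other library. *Ptch1* was the WT exception with all of these cells kept, at 8.66 CPM (6.63 to 11.1) without and 10.7 CPM (9.08 to 12.5) with *Nanog*. *Krt8* was the exception in the library labelled S1/5 dKO, with 7.70 CPM (6.05 to 9.67) without and 11.6 CPM (10.1 to 13.2) with *Nanog*, and *Krt18* showed no detectable difference there. In WT, *Krt8* had 23.0 CPM without and 13 CPM with *Nanog*, but without the cells of at least 10 *Krt18* UMIs its log2 ratio of cells with over cells without *Nanog* changed sign, from −0.83 to 0.42 (0.01 to 0.84). *Krt18* then stood at −0.04 in place of −1.88, *Tagln* at −0.53 (−0.84 to −0.23) in place of −1.12, and *Emp3* at −0.44 (−0.89 to 0.01) in place of −0.61. Apart from these few cells, *Krt8* was thus higher with *Nanog* in both libraries.

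**Figure D4:**
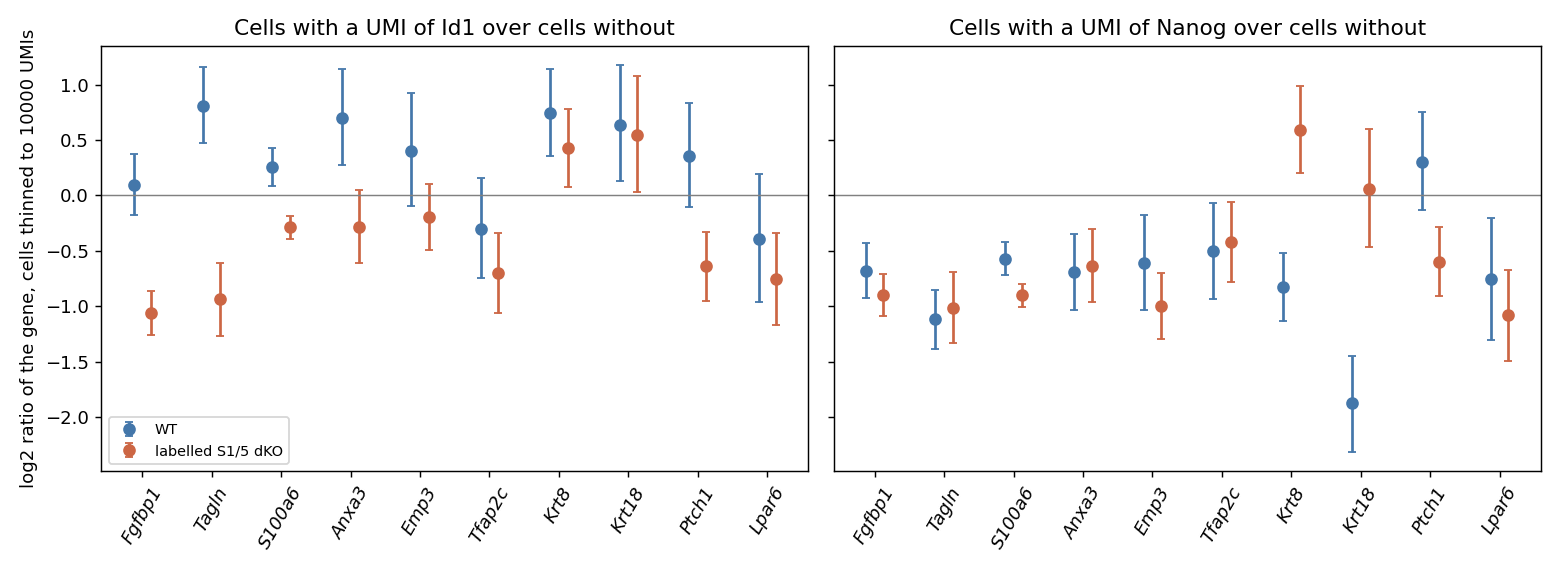
Points give the log2 ratio of each gene in cells with over cells without a UMI of *Id1* (left) or *Nanog* (right), at 10000 UMIs per cell, with exact 95% intervals, for WT and the library labelled S1/5 dKO. *Fgfbp1* stood at 0.10 in WT and −1.06 in the other library for *Id1*, and at −0.68 and −0.90 for *Nanog*.

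Cells were also grouped by the number of the 10 genes found in them. At 10000 UMIs, 37.4% of the WT cells (35.4 to 39.5%) held none of the genes and 10.4% (9.11 to 11.7%) held 3 or more. In the other library the shares were 35.2% (33.5 to 37.0%) and 13.1% (11.9 to 14.4%). Cells with 5 or more were 1.64% (1.15 to 2.27%) and 1.72% (1.28 to 2.27%). From cells with none to cells with 5 or more of the genes, *Zfp42* went from 880 to 439 CPM in WT and from 925 to 449 CPM in the other library. *Pou5f1* stood at 1339 and 1094 CPM at the 2 ends in WT and at 1327 and 894 CPM in the other library. *Sp5* stood at 3.41 and 11.1 CPM in WT and at 4.59 and 53.1 CPM in the other library. *Id1* did not follow the number throughout, as its 5-or-more groups, 328 CPM (271 to 393) in WT and 149 CPM (117 to 187) in the other library, overlapped those with none. Median total UMIs were lower at the upper end, 30372 against 39875 in WT and 25631 against 36150.5 in the other library, and the part of depth in these levels beyond the thinning was not tested.

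**Figure D5:**
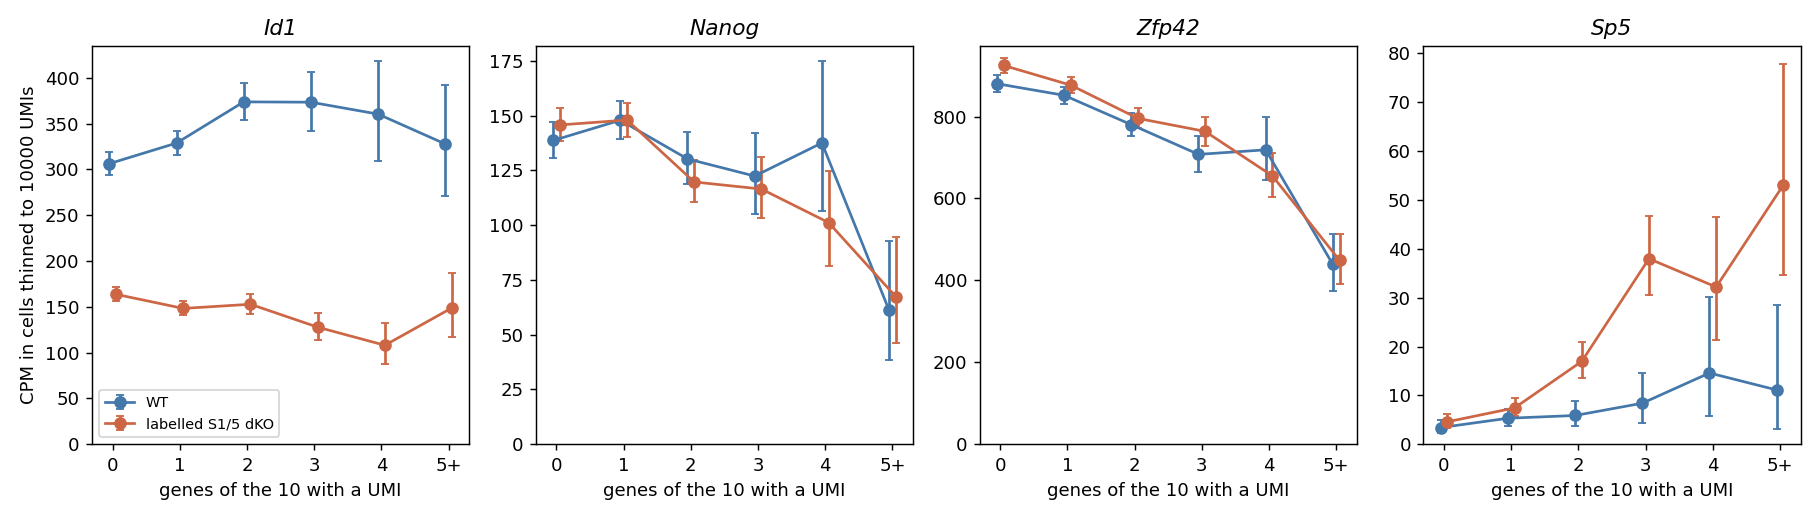
Levels of *Id1*, *Nanog*, *Zfp42* and *Sp5* in cells grouped by how many of the 10 genes had a UMI (horizontal axis, 5+ for 5 or more), in CPM of cells thinned to 10000 UMIs, with exact 95% Poisson intervals. *Zfp42* stood at 439 and 449 CPM in the last group, and *Id1* stood between 306 and 374 CPM in the WT groups and between 108 and 164 CPM in those of the other library.

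Related gene groups were described by their r with the 10-gene mean. Of the 13644 other genes with at least 50 UMIs, 7.23% for WT and 5.88% for the library labelled S1/5 dKO had an r of at least 0.1, and 2.53% and 2.79% had an r of at most −0.1. Of 9 measured contractile genes, 9 in WT and 8 in the other library reached 0.1, led by *Cald1* and *Tpm1*. Of 5 targets of YAP, 4 did in each library, with *Cyr61* at 0.45 and 0.35 and *Ctgf* at 0.41 and 0.30. *Lats2* did in WT alone and *Axl* in the other library alone. Of 12 other S100 and annexin genes, 9 and 7 did, with *S100a11* at 0.33 and 0.26. Of 9 simple epithelial genes, 7 and 5 did, with *Krt19* at 0.53 and 0.24 and *Epcam* at 0.14 and 0.16. In cells with 5 or more of the 10 genes, the contractile list summed to 1450 CPM for WT and 747 CPM for the other library, against 229 and 200 CPM in cells with none. The 5 WT cells of at least 10 *Krt18* UMIs held 18, 16, 17, 0 and 6 of the 215 *Krt19* UMIs. *Acta2*, with an r of 0.37 in WT and 0.059 in the other library, had 0, 5, 34, 0 and 0 of its 120 WT UMIs there. The r values and sums of these lists were not computed without those cells.

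Naïve genes lay on the other side, with 6 of 11 in WT and 4 of 11 in the library labelled S1/5 dKO at an r of at most −0.1. *Klf4* stood at −0.14 and −0.15, and *Tbx3* at −0.12 and −0.29. *Dppa3*, of the same list, was at 0.093 and 0.25. Of 5 formative and primed genes, 0 and 2 reached 0.1, *Dnmt3b* and *Otx2* at 0.13 and 0.14 in the latter library. Of 6 genes of G1/S, 4 and 2 were at −0.1 or lower, and of 6 mitotic genes 0 and 1. Of the other measured Wnt pathway genes and targets, *Sp5* left aside as the gene of the choice, 0 were at 0.1 or higher in either library. Of 11 Hedgehog genes, 0 were, although *Gli1* was the gene closest to *Ptch1*. Paralogs of the 10 genes reached 0.1 in 3 of 12 cases in each library. Of 8 BMP targets, *Id2* in WT and *Id2* and *Smad6* in the other library reached 0.1, and *Id1* was below −0.1 in the latter. Genes of ER stress (6) and of 2-cell-like cells (4 measured) had 0 members at either limit.

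Markers of other cell types were scarce. The fibroblast list summed to 0.802 CPM in WT and 1.05 CPM in the library labelled S1/5 dKO, most of it *Thy1*, with 4 of 7 genes at 0 UMIs in WT and 2 in the other library. The trophoblast list summed to 2.89 and 2.05 CPM, with *Tfap2a* highest and *Elf5* at 0 UMIs in the library labelled S1/5 dKO. Genes of primitive streak and mesoderm together came to 2.02 and 1.61 CPM, with *Mesp1* highest in WT. The primitive endoderm list summed to 26.4 and 17.9 CPM, most of it the matrix genes *Lama1* and *Col4a1*, while *Gata4* was at 0.198 CPM in WT. In WT cells with 5 or more of the 10 genes, the trophoblast list stood at 16.7 CPM (6 UMIs) and the fibroblast list at 0, and in the other library at 4.08 and 2.04 CPM (2 UMIs and 1 UMI). Of the 4 measured trophoblast genes, *Gata3* alone had an r of at least 0.1 with the 10-gene mean, 0.28 in WT and 0.12 in the other library. Their part in the results was not tested.

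The same lists were also compared between the libraries, with no test. Of 8 BMP target genes, 5 were at least 1.5-fold lower in the library labelled S1/5 dKO, with *Id1* at a log2 ratio of −1.01 and *Id2* at −1.76, and 0 were higher. The median log2 ratio was −0.66 over that list, −0.23 over the contractile genes, −0.34 over the YAP targets and −0.16 over the S100 and annexin genes, beside −0.01 over all genes. At least 1.5-fold lower were 1 of 9 contractile genes, 0 of 5 YAP targets and 2 of 12 S100 and annexin genes, with 1 of these 12 higher. Over all genes tested, 2.61% were lower and 2.81% higher by as much. *Cald1* stood at −0.64 and *Krt19* at −0.91. Over the simple epithelial genes the median was 0.04. The lists of other cell types had medians of −0.58 (primitive endoderm, 3 of 6 measured genes at least 1.5-fold lower and 1 higher), −0.47 (trophoblast, 2 of 4 lower) and −0.50 (streak and mesoderm, 1 of 2 lower). The fibroblast list had 1 measured gene, *Thy1*, at 0.38 (−0.10 to 0.88). Of the Wnt list 2 genes, *Sp5* at 1.05 and *Cdx1* at 1.10, were at least 1.5-fold higher, and of the Hedgehog list 2 were lower and 0 higher. Medians were 0.08 for the naïve list, 0.05 for the formative and primed list and for ER stress, 0.09 for the mitotic list and −0.01 for G1/S. Single genes of these lists stood further out, with *Sox3* (−0.69), *Zic2* (−0.71) and *Mcm5* (−0.71) at least 1.5-fold lower and *Dppa3* (0.96) higher. All 4 measured 2-cell-like genes were higher, with a median of 1.43, on few UMIs. These were 14 and 177 for *Tcstv3*, 13 and 60 for *Usp17la*, 39 and 73 for *Zscan4c* and 102 and 206 for *Zscan4d*. The authors counted cells of a 2-cell-like cluster, a different measure, and reported no change in their number with loss of SMAD1/5. Over the paralogs, the median was −0.18, with 3 of 12 at least 1.5-fold lower.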

How the data were processed

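For each condition, the authors aimed at 3000 cells and used the Chromium 3′ v3 kit. Per the submitters' processing notes, Cell Ranger 3.0.2 and mm10 were used, and the deposited matrices hold raw UMI counts per gene and barcode without normalization. Strand handling and doublet removal are not given in the sources used here. Everything else was computed from these counts.

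Cells were barcodes of 1000 or more detected genes and no more than 5% mitochondrial UMIs. Ratios are ratios of UMIs summed over kept cells and scaled to their total, with exact intervals from the split of UMIs. Shares, and levels by class, are from cells thinned to 10000 UMIs. Correlations used ln(1 + UMIs per 10000) within each library. No doublets were removed, and leaving out cells with over 2 times the median UMIs was an alternative. No test between the libraries was made, as each condition has 1 library. The depth, a median of 38662 and 34548.5 UMIs per cell, sets the intervals. Gene positions are from GENCODE for GRCm38, the build that mm10 names. Procedures were tested on simulated data.

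Besides the 10 genes, *Sp5*, *Id1*, *Nanog*, *Smad1*, *Smad5* and the genes of 18 lists, the text names the 5 highest and 5 lowest r with the 10-gene mean per library and the 3 genes most like each member, of which 1 is not reported. *Krt18*-rich cells were set apart after their values were seen, and *Sfn* and *Krt19* in them were picked likewise. The members and lists were chosen with earlier results of these data known. Alternatives were other limits on genes and mitochondrial UMIs, thinning to 5000 or 20000 UMIs, per-cell means, edgeR TMM and median scaling, other UMI minimums, Spearman's rho, and subsets of cells. Python 3.11.15, numpy 2.4.6, scipy 1.17.1, pandas 2.3.3 and edgeR 4.0.16 on R 4.3.3 were used.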

Additional observations from a re-analysis of the deposited data

Results flagged for a closer look

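The level of *Id1* moved in opposite directions with the 10 genes in the 2 libraries. Its log2 ratio of cells with 3 or more of the genes over cells with none was 0.25 (0.13 to 0.36) in WT and −0.38 (−0.53 to −0.23) in the library labelled S1/5 dKO, with each library counted as 1 sample. The difference between the libraries was not tested, since each condition has 1 library. *Nanog* moved the same way in both, at −0.26 (−0.46 to −0.06) and −0.45 (−0.62 to −0.29).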

How the results depend on the processing

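Of 278 alternative values, 199 stayed the same, 78 moved and 1 reversed. In 8 of the others the sign changed where the interval held 0. No paired analysis was possible because each condition has 1 library.

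Without the cells of at least 10 *Krt18* UMIs, chosen after seeing the data, the log2 ratio was −0.803 for *Tagln*, 0.6031 for *S100a6*, −0.282 for *Krt8* and −0.07437 for *Krt18*, and the WT median pairwise r was 0.08809. The WT log2 ratio of *Krt18* in cells with over cells without *Sp5* reversed to −0.4771. Outside these 278, the WT log2 of *Krt8* by *Nanog* went from −0.83 to 0.42 and that of *Krt18* by *Id1* from 0.64 to −0.87. Without the 10 cells of most UMIs of each gene, also chosen after seeing the data, the ratios were −0.7905, 0.5878, −0.2873 and −0.07637 for the same 4 genes. Leaving out cells low in *Pou5f1* was likewise chosen after seeing the data.

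Means of per-cell values gave −0.6957 for *Krt8* and −1.031 for *Krt18*. Cells thinned to 10000 UMIs gave 0.3126 for *Fgfbp1* and 0.4416 for *Lpar6*. The count of genes at least 1.5-fold apart was 741, but 1354 with a minimum of 20 UMIs and 161 with 500.

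The median share of cells with a UMI was 4.819% (WT) and 4.735% (labelled S1/5 dKO) at 5000 UMIs, and 14.98% and 15.12% at 20000. Spearman's rho gave a median over pairs of 0.07645 and 0.08338, and −0.08916 and −0.1803 for the 10-gene mean with *Nanog*. Thinning gave 0.09822 and 0.06802 over pairs, −0.07997 and −0.1257 with *Nanog*, and −0.08229 with *Id1* in the library labelled S1/5 dKO. At 20000 UMIs the median log2 by *Sp5* was 1.04 in WT and 0.91 in the other library, in place of 0.64 and 1.22. In the latter, the mean of 8 genes without the keratins gave −0.1711 with *Id1* and −0.2614 with *Nanog*. The cause was not tested.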
